A study of Mus musculus with 6 samples.

Results

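The interferon response genes of pancreatic islets were followed in a pair of obese mouse strains, probe by probe. The set holds the 76 array probes of 50 gene names, out of 41174 probes and 27827 gene or transcript names on the array (controls left out): 41 genes were listed by name, and 9 more came in because their name in the files begins with Oas or Ifit. In NZO islets Mx1, Ifitm1, Gbp2 and Irf8 were higher than in B6-ob/ob islets, and Mx2, Rsad2 and Oas2 were lower, also when the slide of each array was fitted as a block. Eif2ak2 and Ifi204 were called higher and Oas1b, Oas1c and Oas1e lower only without that block. The neighbours Mx1 and Mx2 differed in opposite directions: a probe of Mx1 was 6.21-fold higher and the Mx2 probe 10.9-fold lower in NZO, or 2.3-fold and 4.95-fold with another background correction (normexp). The calls of Irf8, Gbp2, Oas2 and 1 Rsad2 probe were lost when certain single arrays were left out, while that of Eif2ak2 held without any 1 array. With normexp the calls of Oas2 and 1 Irf8 probe were lost under 1 of 2 scalings. The brightest of 3 Rsad2 probes was not called (-0.76). The Ifit genes, Isg15, Irf7, Stat2 and Irf9 did not pass the test in either direction.

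NZO/HiBomDife mice (New Zealand Obese, NZO), labelled as prone to diabetes, were compared with C57BL/6.V-Lepob/ob mice (B6-ob/ob), which lack functional leptin and are labelled as resistant. All animals were male, had been fed a fatty diet free of carbohydrate up to 18 weeks of age, and had their islets isolated 48 h after a change to food with carbohydrate, so both strains share the diet change and no islets from before it were analysed here. There are 3 arrays for NZO (replicates 10, 11 and 12) and 3 for B6-ob/ob (replicates 4, 5 and 6), each with 1 Cy3-labelled sample. Nothing in the labels tells single animals from pools, so the p-values cover only the spread from array to array, some of which may be technical. The strains differ in their whole genetic background as well as in the leptin gene, and these cannot be told apart here.

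Interferons are secreted proteins that warn cells of viruses. Type I interferons bind the receptor made of IFNAR1 and IFNAR2, and interferon gamma binds the receptor that contains IFNGR1. Type I signalling builds a complex with STAT2 and IRF9 that binds the interferon-stimulated response element (ISRE), while interferon gamma acts mainly at the gamma-activated site (GAS). The genes switched on this way include sensors of viral RNA, enzymes and GTPases that block viral growth, and the regulators that end the signal. In islets the response is known above all from viral infection and autoimmune diabetes, where beta cells themselves express it.

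A level here is the processed spot intensity of a probe, in scanner units. Whether a probe matches the sequence of both strains was not tested for any gene. For the tests it was turned into log2 and set relative to the 75th percentile of its array, which lay between 342 and 453 units. Between 23621 and 24711 probes per array were well above background by the scanner software. With 3 arrays in each strain, precision is limited by their number. The 9 probes of beta cell markers such as Ins1 and Pdx1 were well above background, with a summed level of 3320 to 3880 times the 75th percentile on the NZO arrays and 3111 to 3906 times on the B6-ob/ob arrays. A probe was tested if at least 3 of 6 arrays had it well above background. Of the interferon probes 57, of 43 genes, met this, 53 of them on all 6. The other 19 were not tested, and 14 of these were not well above background on any array. Ifi205, Ifitm5, Ifitm6, Oas1d, Oas1g, Oas1h and Oas3 had no tested probe.

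A positive difference means a higher level in NZO. Strains are those that the labels give to the scanner files, and the direction is opposite to that of the deposited value table. There, a column labelled NZO tracks a B6-ob/ob array and a column labelled B6-ob/ob tracks an NZO array (Pearson correlation over probes, after centring each probe, of 0.966 to 0.984) and runs against the array of its own label (-0.778 to -0.523). A gene outside the set bears on the direction. Ifi202b, a neighbour of Ifi203 and Ifi204 on chromosome 1, is known to be silent in C57BL/6 mice because of a deletion. Its intensity was 555, 531 and 245 on NZO 10, 11 and 12 by the scanner labels, and 2.13, 2.29 and 1.91 on B6-ob/ob 4, 5 and 6, where it was not well above background. The NZO level was at least 46.3-fold higher in the processed intensities. Such a bound sets the NZO mean against the dimmest signals that the software called well above background on the other arrays. It holds for the processed intensities only. With normexp before 75th percentile or quantile scaling Ifi202b was 9.47-fold and 8.81-fold higher in NZO.

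Of the 57 tested probes 15 were higher in NZO (26.3%) and 8 were lower (14.0%) by limma at an adjusted p under 0.05, against 11.5% higher and 10.3% lower among all 24628 probes tested. Together 40.4% were called, against 21.8% of all probes. They stand for 18 genes, 12 with a higher probe and 7 with a lower one, of which Ifi203 has both, while 25 tested genes had no called probe. All 4 probes that were well above background on only 3 to 5 arrays were called, 2 of them having been measured in 1 strain alone, and such probes pass the filter through the strain where they are high. Of the 53 measured on all 6 arrays 13 were higher (24.5%) and 6 lower (11.3%), against 10.1% and 9.59% of 21967 such probes. The median difference was 0.22 on the log2 scale, against -0.06 over all probes, and the median size regardless of sign was 0.56, against 0.30. The former median was 0.086 without NZO 11, 0.12 without B6-ob/ob 6, 0.15 on the array median scale and 0.080 with no filter on dim probes. Arrays of the strains did not overlap at 30 of 57 probes, against 41.0% of all probes. Among the called probes 6 higher and 5 lower ones differed by at least 1 on the log2 scale, among them the Ifi203 probes and an Mx1 probe near background in 1 strain.

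**Figure D1:**
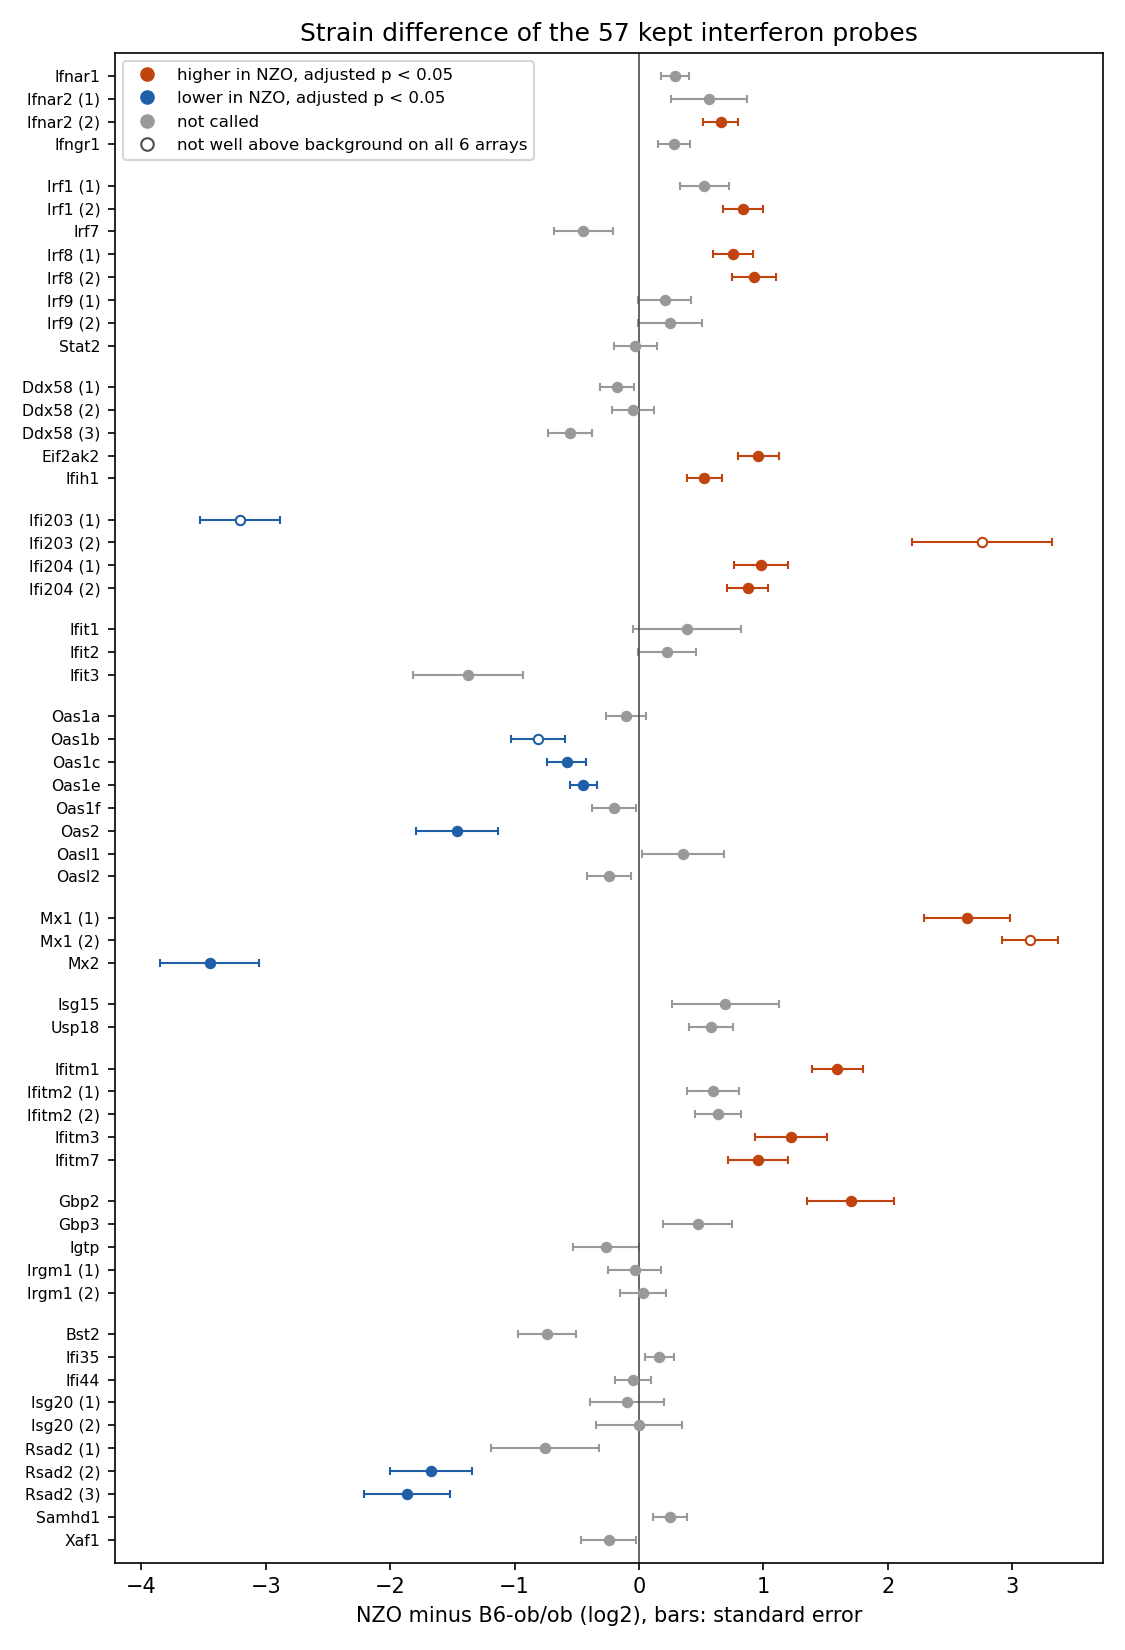
Difference of each of the 57 tested interferon probes between the strains, NZO minus B6-ob/ob on the log2 scale (horizontal axis), ordered by the role of the gene; bars are standard errors from limma over 3 arrays per strain, and colour gives the call. Probes of 1 gene are numbered by position along the chromosome. White centres mark the 4 probes not well above background on all 6 arrays, whose size is not exact. Among the other probes the differences run from -3.45 for Mx2 to 2.63 for a probe of Mx1, and the Ifitm probes all lie to the right while 7 of 8 Oas and Oasl probes lie to the left.

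The arrays were hybridised on 3 slides, 1 with NZO 10 and B6-ob/ob 4, another with NZO 11 and B6-ob/ob 5 and 6, and the last with NZO 12 alone. All 23 called probes had the same direction within both shared slides. This follows from their strains not overlapping on any array and adds no evidence. The median over the 57 probes was -0.09 within the first shared slide and 0.44 within the other. With the slide as a fixed block 11 of the 23 kept their call, which left 6 higher and 5 lower. Both Mx1 probes, the Mx2 probe, Ifitm1, 1 probe of Ifi203 and 1 of Rsad2 kept their call under each of up to 18 alternative settings, apart from the value table read by its own labels. Mx1 probe A_52_P614259 was tested in 15 such settings, and not where all 6 arrays had to be well above background. It entered the test through NZO alone, so its kept calls rest on B6-ob/ob values at background. Leaving out NZO 11 or B6-ob/ob 5 left 6 higher and 4 lower probes of the 57, and leaving out NZO 10 left 8 and 5. Without B6-ob/ob 4 there were 16 higher and 5 lower. Normexp correction adds an offset of 50 units, which by construction draws dim values together, and its values are given for the interferon probes whose fold it moved by over 1.5 times. Calls that ended with the slide as a block, or with an array left out, are given with each gene.

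Markers of other cell types also differed between the strains. Over all tested probes 11.5% were higher and 10.3% lower, the shares to set beside the counts that follow. All 11 probes of stellate and fibroblast markers were higher in NZO, with a summed level (in units of the 75th percentile) of 52.5 to 62.1 on NZO arrays and 5.65 to 15.5 on B6-ob/ob arrays. All 8 acinar probes were higher (669 to 1133 against 94.7 to 323), as were 6 of 8 ductal probes (114 to 156 against 76.5 to 145) and 4 of 11 endothelial probes (47.8 to 62.5 against 40.5 to 44.6). Macrophage and myeloid markers were higher at 11 of 17 probes (19.3 to 35.8 against 9.42 to 11.2). Csf1r, Adgre1, Tyrobp and Ptprc were tested and not called, and Itgam stayed at background on every array. Of 19 lymphocyte probes 5 were tested and came out higher but dim (0.340 to 0.415 against 0.146 to 0.183). Only 2 of these were well above background on all 6 arrays, and 2 were measured in NZO alone, so the filter favours that direction. Cd3g, Cd4, Cd79a, Cd8a and Ms4a1 were not well above background anywhere. Of the stellate and fibroblast probes 7, and of the ductal probes 4, were measured on all 6 arrays, and of those 7 and 2 were higher. The list for plasmacytoid dendritic cells was higher at 3 of 7 probes (22.0 to 31.1 against 10.9 to 16.2), with Ccr9 not above background. Of these 3 probes 2 are the Irf8 probes of the interferon set and the third is that of Klk1, while Bst2, also shared with the set, was not called (-0.74). Whether Klk1 reads these cells or others in this tissue was not tested, so the list is not taken as a measure of that cell type. None of the 9 beta cell probes was higher and 1 was lower, that of Nkx6-1 at -0.81. The part of these cells in the interferon differences was not tested, and in whole islets fewer cells of a type cannot be told apart from less RNA per cell.

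**Figure D2:**
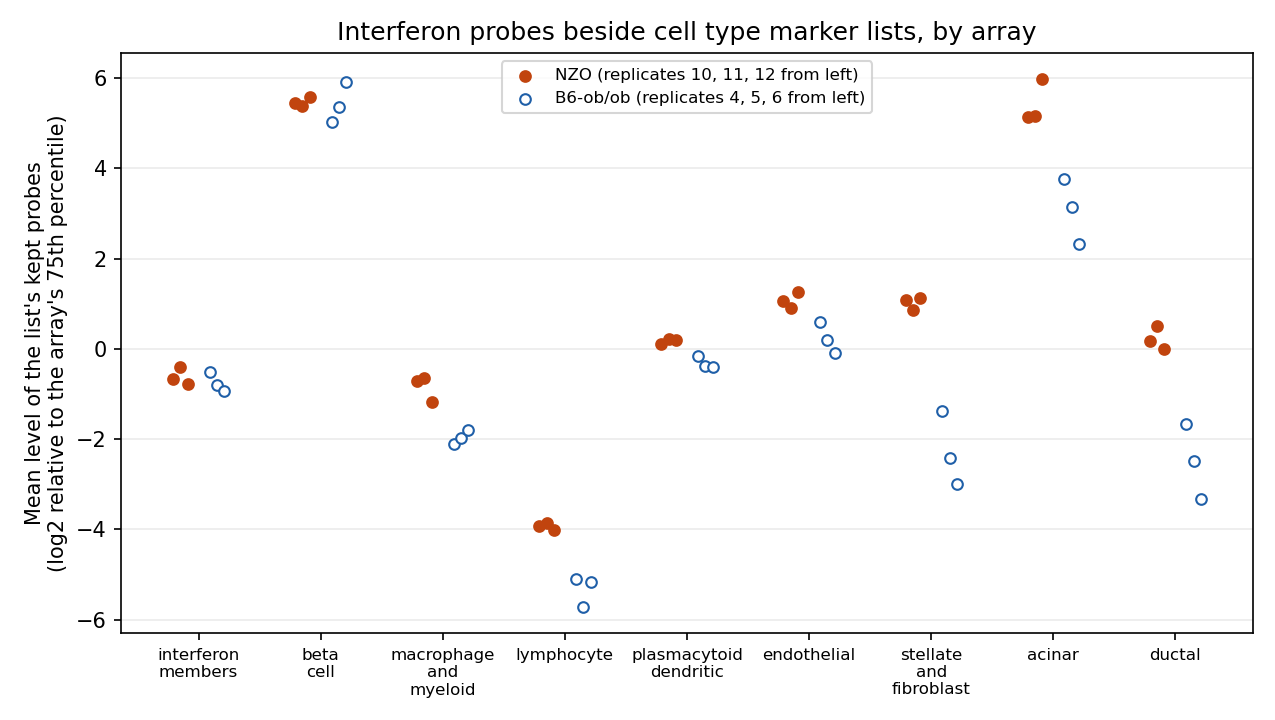
Mean level of the tested probes of each list on each array, in log2 intensity relative to the 75th percentile of the array (vertical axis); filled points are NZO and open points B6-ob/ob. The interferon probes average -0.66, -0.41 and -0.78 on the NZO arrays and -0.53, -0.81 and -0.94 on the B6-ob/ob arrays and overlap, as does the beta cell list, while the other 7 lists do not.

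All 4 probes of the interferon receptors were on the positive side, and 1 was called, against 21.8% of all tested probes. Ifnar2 encodes the chain that binds type I interferon most tightly. Its probe at chr16:91405479-91405538 (mm9) read 371, 318 and 360.5 on NZO 10, 11 and 12 and 246, 229.7 and 233 on B6-ob/ob 4, 5 and 6. Every NZO array was brighter than every B6-ob/ob array, and the difference was 0.66 on the log2 scale (SE 0.14, limma adjusted p = 0.0219). The other Ifnar2 probe, 11435 bases away, differed by 0.56 with overlapping arrays (adjusted p = 0.25 by limma). The call ended with the slide as a block (adjusted p = 0.0891), in the value table read by the array each column follows (adjusted p = 0.148), and with 1 array left out, either NZO 10, NZO 11, NZO 12, B6-ob/ob 5 or B6-ob/ob 6 (adjusted p = 0.0529 to 0.0945). Ifnar1, the partner chain, differed by 0.29 (adjusted p = 0.119 by limma), and Ifngr1, the ligand-binding chain for interferon gamma, by 0.28 (adjusted p = 0.182).

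Among the transcription factors, Irf1 and Irf8 were higher in NZO, and the factors of the type I pathway were not called. IRF1 is a factor that interferon gamma induces, and IRF8 is a factor of myeloid and B cells. The Irf1 probe at chr11:53590715-53590774 had 20366, 15785 and 20617 on the NZO arrays and 11190.3, 9769 and 12902 on the B6-ob/ob arrays, with no overlap. It differed by 0.84 (SE 0.16, limma adjusted p = 0.0147), while a second Irf1 probe, 3269 bases upstream, differed by 0.52 (adjusted p = 0.113). With the slide as a block the adjusted p of the first probe was 0.0759, and its call also ended without NZO 11 (adjusted p = 0.051).

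Both Irf8 probes were higher. One read 497, 391 and 336 in NZO and 214, 214 and 253 in B6-ob/ob (difference 0.92, SE 0.18, limma adjusted p = 0.0146), and the other, 435 bases away, 89.0, 55.1 and 60.2 in NZO and 37.3, 41.8 and 47.8 in B6-ob/ob (0.75, adjusted p = 0.0206). At both probes the lowest NZO array was above the highest B6-ob/ob array. With the slide as a block both calls held, and the first was lost without NZO 10, NZO 11 or B6-ob/ob 5 (adjusted p = 0.0543 to 0.0645), the second without NZO 10, NZO 11 or B6-ob/ob 5 (adjusted p = 0.0532 to 0.0898) and with normexp before quantile normalisation (adjusted p = 0.103). Irf8 is also on the plasmacytoid dendritic cell list. Several myeloid markers, like markers of other cell types, were higher in NZO too, as given above, and their part was not tested. Irf7, which amplifies the production of type I interferon, had a difference of -0.45, with 148, 148 and 138 in NZO and 182, 308 and 166 in B6-ob/ob (adjusted p = 0.24 by limma). Stat2 differed by -0.03 and the Irf9 probes by 0.21 and 0.25, all far from the threshold.

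Of the sensors of viral RNA, Eif2ak2 and Ifih1 were higher and Ddx58 was not called. EIF2AK2 (PKR) is a kinase that stops translation when it meets double-stranded RNA. Its probe on chromosome 17 read 389.6, 373 and 385 in NZO and 212, 239 and 182 in B6-ob/ob, close to 1.94-fold higher with no overlap (difference 0.96, SE 0.16, limma adjusted p = 0.00939). The call held without any 1 array, and with the slide as a block the adjusted p was 0.0542. IFIH1 (MDA5) senses long double-stranded RNA. Its tested probe had 468, 401 and 359 in NZO and 276, 322 and 309.6 in B6-ob/ob, a smaller gap of 0.52 (SE 0.14, limma adjusted p = 0.0449). It was lost with the slide as a block (adjusted p = 0.054), on the array median scale, with no filter on dim probes, in the value table read by the array each column follows, and without NZO 10, NZO 11, B6-ob/ob 4, B6-ob/ob 5 or B6-ob/ob 6 (adjusted p = 0.0718 to 0.149). Ddx58 (RIG-I), which senses short viral RNA with a triphosphate end, had 3 tested probes at -0.55, -0.18 and -0.05, the first with arrays that did not overlap (adjusted p = 0.0735 by limma).

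The Ifi200 family lies in a cluster of 277 kb on chromosome 1 and encodes proteins that bind DNA, some of them sensors of DNA in the cytoplasm. All 4 tested probes of Ifi203 and Ifi204 were called, 3 higher and 1 lower, against 21.8% of all tested probes called. The 2 directions met in Ifi203, whose higher probe entered the test through NZO alone. The letters of its probes are shown because they stand 13169 bases apart and read the strains in opposite ways. Each line gives the 5′ 30 of 60 bases of a probe, in lower case since no part is marked.
Ifi203 probe A_51_P237856, chr1:175850608-175850667, minus strand, mm9: actcctcttgaactccatgaaagaaacttc
Ifi203 probe A_52_P134762, chr1:175863777-175863836, minus strand, mm9: cttgtcctgatattatgttattgtcttaat

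Probe A_51_P237856 read 9.91, 18.3 and 12.2 on the NZO arrays, where only 1 was well above background, and 94.2, 147 and 154 on the B6-ob/ob arrays. The fitted difference was -3.21 (SE 0.32, limma adjusted p = 0.00148), and with normexp, before 75th percentile or quantile scaling, it was -1.05 and -1.17. Since 2 of 3 NZO arrays are near background, its size is not exact. The probe kept this call when any 1 array was left out and with the slide as a block (adjusted p = 0.0064). Probe A_52_P134762 read 24.1, 44.2 and 30.2 in NZO and 9.29, 2.73 and 4.98 in B6-ob/ob, where no array was well above background. It entered the test through NZO alone and was at least 3.53-fold higher there by the bound, which holds for the processed intensities only. The limma adjusted p of 0.0172 belongs to the fitted difference, which uses the values at background, and does not test this bound. The normexp differences were 0.65 and 0.49, or 1.57-fold and 1.40-fold. This call ended with the slide as a block (adjusted p = 0.0769) and when the left-out array was NZO 11 (adjusted p = 0.061). Near-identical genes are common in this cluster, and whether each probe reads Ifi203 alone, or matches both strains, was not tested.

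Ifi204, a family member made in macrophages among other cells, had 2 adjoining probes that moved together. One read 285, 283 and 236 in NZO and 149.7, 172 and 117 in B6-ob/ob (difference 0.98, SE 0.22, limma adjusted p = 0.0237), the other 96.6, 98.1 and 88.3 in NZO and 54.3, 59.8 and 50.6 in B6-ob/ob (difference 0.88, adjusted p = 0.0132). Neither overlapped between the strains. Both calls ended with the slide as a block (adjusted p = 0.064 and 0.0505). The former was also lost without NZO 10, NZO 11 or B6-ob/ob 5 (adjusted p = 0.0668 to 0.0793), the latter without B6-ob/ob 5 (adjusted p = 0.0575). Several macrophage and myeloid markers, like markers of stellate, acinar and ductal cells, were higher in NZO too, and their part was not tested.

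The Mx proteins are large GTPases that trap viral components, and in mice MX1 acts in the nucleus and MX2 in the cytoplasm. Many laboratory strains, C57BL/6 among them, are known to carry an Mx1 gene with coding exons missing, and the alleles of these animals were not analysed here. The genes lie side by side on chromosome 16, and all 3 of their probes were called, against 21.8% of all tested probes. The letters are given, again as the 5′ 30 of 60 bases, because the neighbours Mx1 and Mx2 differed in opposite directions.
Mx1 probe A_52_P446431, chr16:97669616-97669675, minus strand, mm9: cctttagactgtggaagcaagcaagccctt
Mx1 probe A_52_P614259, chr16:97672001-97672060, minus strand, mm9: ctgctacctttcaaaataactctcagtttc
Mx2 probe A_51_P514085, chr16:97782327-97782386, plus strand, mm9: aagagaaagaggctctcaaagctcagcaag

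Mx1 probe A_52_P446431 had 85.0, 71.5 and 164 on NZO 10, 11 and 12 and 20.2, 19.3 and 13.0 on B6-ob/ob 4, 5 and 6. The dimmest NZO array stood well clear of the brightest B6-ob/ob array, and NZO 12 was the brightest of all. The difference was 2.63 (SE 0.35, limma adjusted p = 0.00371), or 1.201 and 1.1 with normexp before the 2 scalings. Probe A_52_P614259, 2385 bases upstream in the gene, read 18.7, 12.8 and 27.3 in NZO and 2.07, 2.46 and 2.28 in B6-ob/ob, where it stayed at background on all 3 arrays. It entered the test through NZO alone and was at least 2.08-fold higher there by the bound, which holds for the processed intensities only. With normexp it was 1.46-fold and 1.30-fold higher (differences of 0.54 and 0.38). The limma adjusted p of 0.00046 belongs to the fitted difference, which uses the values at background, and does not test the bound.

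Mx2 went the other way at its only probe on the array, and whether that probe matches both strains was not tested. Its probe read 92.4, 52.8 and 28.9 in NZO and 458, 678 and 720.4 in B6-ob/ob, a difference of -3.45 (SE 0.40, limma adjusted p = 0.00239) and of -2.31 and -2.38 with normexp. NZO 12, where Mx1 was brightest, was the dimmest array for Mx2. The calls of Mx1 probe A_52_P446431 and of Mx2 held with the slide as a block (adjusted p = 0.0136 and 0.0062) and without any 1 array. That of Mx1 probe A_52_P614259 was kept too (adjusted p = 0.0031 with the block), but it rests on B6-ob/ob values at background. Within the shared slides Mx1 probe A_52_P446431 differed by 1.84 and 2.56, and Mx2 by -2.54 and -3.34.

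**Figure D3:**
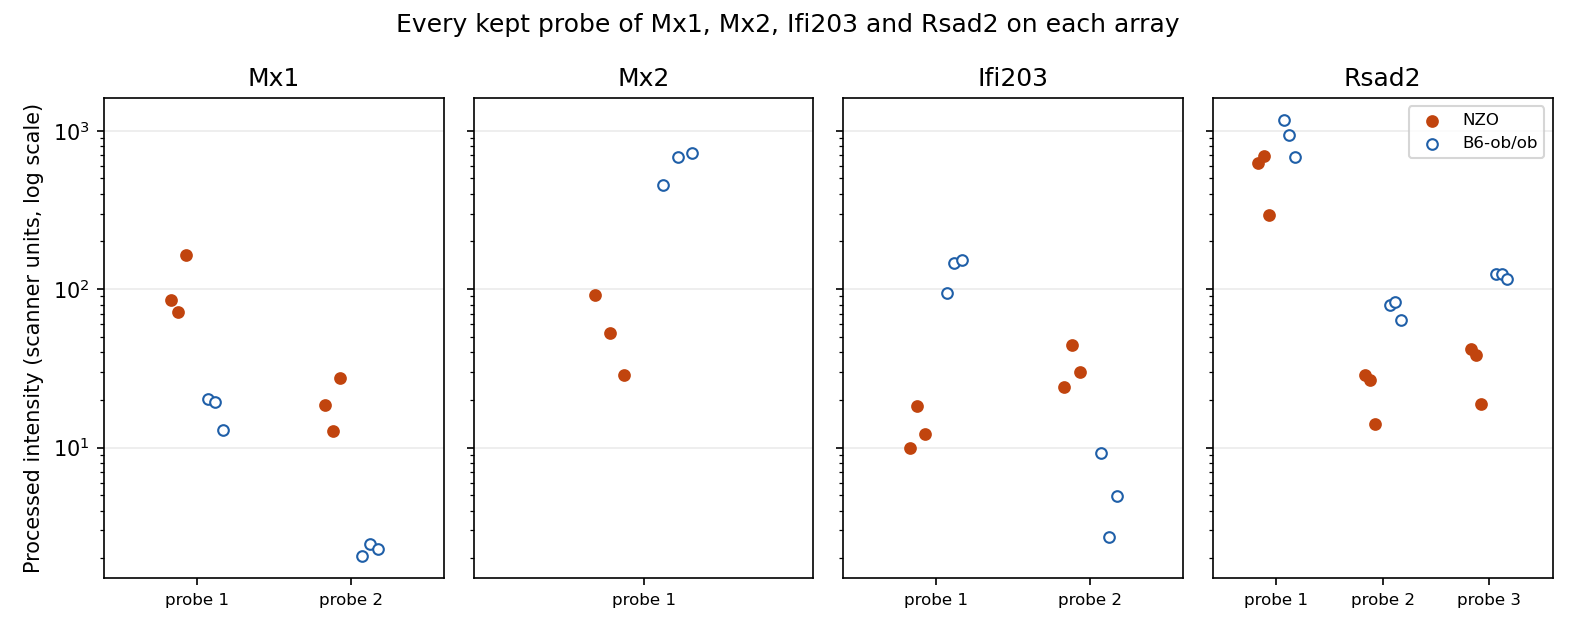
Processed intensity of every tested probe of Mx1, Mx2, Ifi203 and Rsad2 on each array (vertical axis, scanner units on a log scale); filled points are NZO replicates 10, 11 and 12 and open points B6-ob/ob replicates 4, 5 and 6, from left to right. Probes of a gene are numbered along the chromosome. Mx1 is brighter and Mx2 dimmer on every NZO array, the pair of Ifi203 probes cross, and only the first Rsad2 probe, with 296 on NZO 12 and 1172 on B6-ob/ob 4, has overlapping strains.

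The Ifitm genes encode small membrane proteins that stop viruses from fusing with the cell. All 5 tested probes were on the positive side and 3 were called higher, against 11.5% of all tested probes. Ifitm1 had 334, 267 and 275 in NZO and 114, 115 and 82.3 in B6-ob/ob, 3.02-fold higher with no overlap (difference 1.59, SE 0.20, limma adjusted p = 0.00326). This call held when any 1 array was left out and with the slide as a block (adjusted p = 0.0188). Ifitm3, the member best known for blocking influenza virus, had 1764, 1779.6 and 1558 in NZO and 1023, 779.6 and 584 in B6-ob/ob (difference 1.22, SE 0.29, limma adjusted p = 0.0286). Its lowest NZO array was above its highest B6-ob/ob array.

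Ifitm7, whose probe lies on chromosome 16 away from the cluster on chromosome 7, read 1194, 1122 and 1224 in NZO and 823, 619 and 537 in B6-ob/ob (difference 0.95, SE 0.24, limma adjusted p = 0.0362). The calls of Ifitm3 and Ifitm7 ended with the slide as a block (adjusted p = 0.0802 and 0.112), with no filter on dim probes, and when 1 array was left out: for Ifitm3 NZO 10, NZO 11, NZO 12, B6-ob/ob 5 or B6-ob/ob 6 (adjusted p = 0.0518 to 0.103), and for Ifitm7 NZO 10, NZO 11, NZO 12, B6-ob/ob 5 or B6-ob/ob 6 (adjusted p = 0.0752 to 0.13). The probes of Ifitm2 differed by 0.63 and 0.59 (limma adjusted p = 0.057 and 0.0962), with no overlap at either. The files place the latter on chromosome 7 but outside the cluster. These genes are close copies of each other, and whether a probe also reads its relatives was not tested.

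The interferon-induced GTPases were represented by Gbp2, which was higher, and by Gbp3, Igtp and Irgm1, which were not called. These proteins gather on the vacuoles of invading microbes and are induced mainly by interferon gamma. Gbp2 had 479, 711 and 379 on the NZO arrays and 200.3, 151 and 151 on the B6-ob/ob arrays. It was 3.25-fold higher with no overlap, and NZO 11 was the brightest (difference 1.70, SE 0.35, limma adjusted p = 0.0177). The call held with the slide as a block (adjusted p = 0.0434) and was lost without B6-ob/ob 5 (adjusted p = 0.0736). Gbp3 differed by 0.47, Igtp by -0.27 and the Irgm1 probes by -0.03 and 0.03, with overlapping arrays at each.

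The Oas genes encode enzymes that make a short RNA-like signal, 2′-5′ oligoadenylate, and so switch on the ribonuclease RNase L. They sit in a cluster of 191 kb on chromosome 5, where all 6 tested probes were on the negative side and 4 were called lower. Of all tested probes 10.3% were lower, and their median difference was -0.06. With normexp and 75th percentile scaling all 4 Oas calls ended. Whether a probe also reads other genes of the cluster was not tested. Oas2 read 13.7, 20.7 and 28.6 in NZO and 51.5, 79.4 and 50.4 in B6-ob/ob, 2.76-fold lower with no overlap (difference -1.47, SE 0.33, limma adjusted p = 0.0242). The call held with the slide as a block (adjusted p = 0.039) and ended without NZO 11, B6-ob/ob 4 or B6-ob/ob 5 (adjusted p = 0.0525 to 0.0923). With normexp and 75th percentile scaling the difference was -0.40 and not called (adjusted p = 0.193), and with normexp and quantile scaling it was -0.52 and called (adjusted p = 0.0271).

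The called Oas1 genes had smaller gaps. Oas1b, the gene that decides resistance to flaviviruses in mice, was dim, at 7.87, 6.19 and 10.4 in NZO, where 1 array of 3 was well above background, and 13.8, 12.8 and 18.8 in B6-ob/ob (difference -0.81, SE 0.21, limma adjusted p = 0.0419). Oas1c had 233, 200.3 and 261 in NZO and 281, 381 and 463 in B6-ob/ob (-0.58, adjusted p = 0.0451 by limma), and Oas1e had 47.8, 39.3 and 45.1 in NZO and 58.4, 64.5 and 69.3 in B6-ob/ob (-0.45, adjusted p = 0.0312). No NZO array reached any B6-ob/ob array in these genes. All 3 calls ended with the slide as a block (adjusted p = 0.0587, 0.0938 and 0.127), with normexp before either scaling and with no filter on dim probes, those of Oas1b and Oas1e also with a trended and robust prior. The Oas1b difference was -0.018 and -0.18 with normexp. The 3 calls were also lost with 1 array left out, Oas1b without NZO 10, NZO 11, B6-ob/ob 4 or B6-ob/ob 6 (adjusted p = 0.0897 to 0.136), Oas1c without NZO 10, NZO 11, NZO 12, B6-ob/ob 5 or B6-ob/ob 6 (adjusted p = 0.0714 to 0.137) and Oas1e without NZO 10, NZO 11, NZO 12, B6-ob/ob 4, B6-ob/ob 5 or B6-ob/ob 6 (adjusted p = 0.0648 to 0.103). Oas1a, which makes an active enzyme, differed by -0.10 and Oas1f by -0.20. In the separate Oasl pair, Oasl1 differed by 0.35 and Oasl2 by -0.24, with overlapping arrays.

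Rsad2 encodes viperin, a radical-SAM enzyme that makes a chain-terminating nucleotide against viral polymerases. Its 3 probes are shown because they gave different sizes of the strain difference along 1 gene. Probes A_51_P505134 and A_51_P505132 match across an intron, as their span on mm9 shows, and are printed whole, while A_52_P670026 is printed as its 5′ 30 of 60 bases.
Rsad2 probe A_52_P670026, chr12:27127859-27127918, minus strand, mm9: tgtttggagtttggagtctaatggttgcat
Rsad2 probe A_51_P505134, chr12:27130424-27133462, minus strand, mm9: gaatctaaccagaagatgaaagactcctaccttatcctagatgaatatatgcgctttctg
Rsad2 probe A_51_P505132, chr12:27135585-27138886, minus strand, mm9: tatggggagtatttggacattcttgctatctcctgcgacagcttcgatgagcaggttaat

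The 2 probes across introns were lower in NZO. Probe A_51_P505132 had 42.2, 38.6 and 18.9 in NZO and 124, 125 and 116 in B6-ob/ob (difference -1.86, SE 0.34, limma adjusted p = 0.0123), and probe A_51_P505134 had 28.7, 26.9 and 14.0 in NZO and 79.2, 83.4 and 64.2 in B6-ob/ob (-1.67, SE 0.33, adjusted p = 0.0158). The strains did not overlap at either, and NZO 12 was the dimmest array at both. Probe A_52_P670026, farthest downstream, read 626, 690.1 and 296 in NZO and 1172, 942 and 679 in B6-ob/ob, overlapped, and was not called (-0.76, adjusted p = 0.272 by limma). Within an array, its log2 ratio to probe A_51_P505134 lay between 4.40 and 4.68 in NZO and between 3.40 and 3.89 in B6-ob/ob. The strain difference was thus unequal between these probes, and whether each matches both strains was not tested. The normexp differences were -0.89 and -0.99 at A_51_P505132 and -0.56 and -0.69 at A_51_P505134, all called. Both calls held with the slide as a block (adjusted p = 0.0151 and 0.0282), and that of A_51_P505134 ended without B6-ob/ob 5 (adjusted p = 0.0635). Cmpk2, a nucleotide kinase gene beside Rsad2 on chromosome 12 and outside the set, was lower as well at both of its probes. Probe A_51_P400190 read 26.1, 13.1 and 24.2 in NZO and 305, 374 and 311 in B6-ob/ob (difference -3.93, SE 0.21, limma adjusted p = 0.000191, and -2.02 with normexp). Probe A_52_P186937 read 273, 169 and 301 in NZO and 924, 1049 and 1043 in B6-ob/ob (difference -1.97, SE 0.17, adjusted p = 0.000842).

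**Figure D4:**
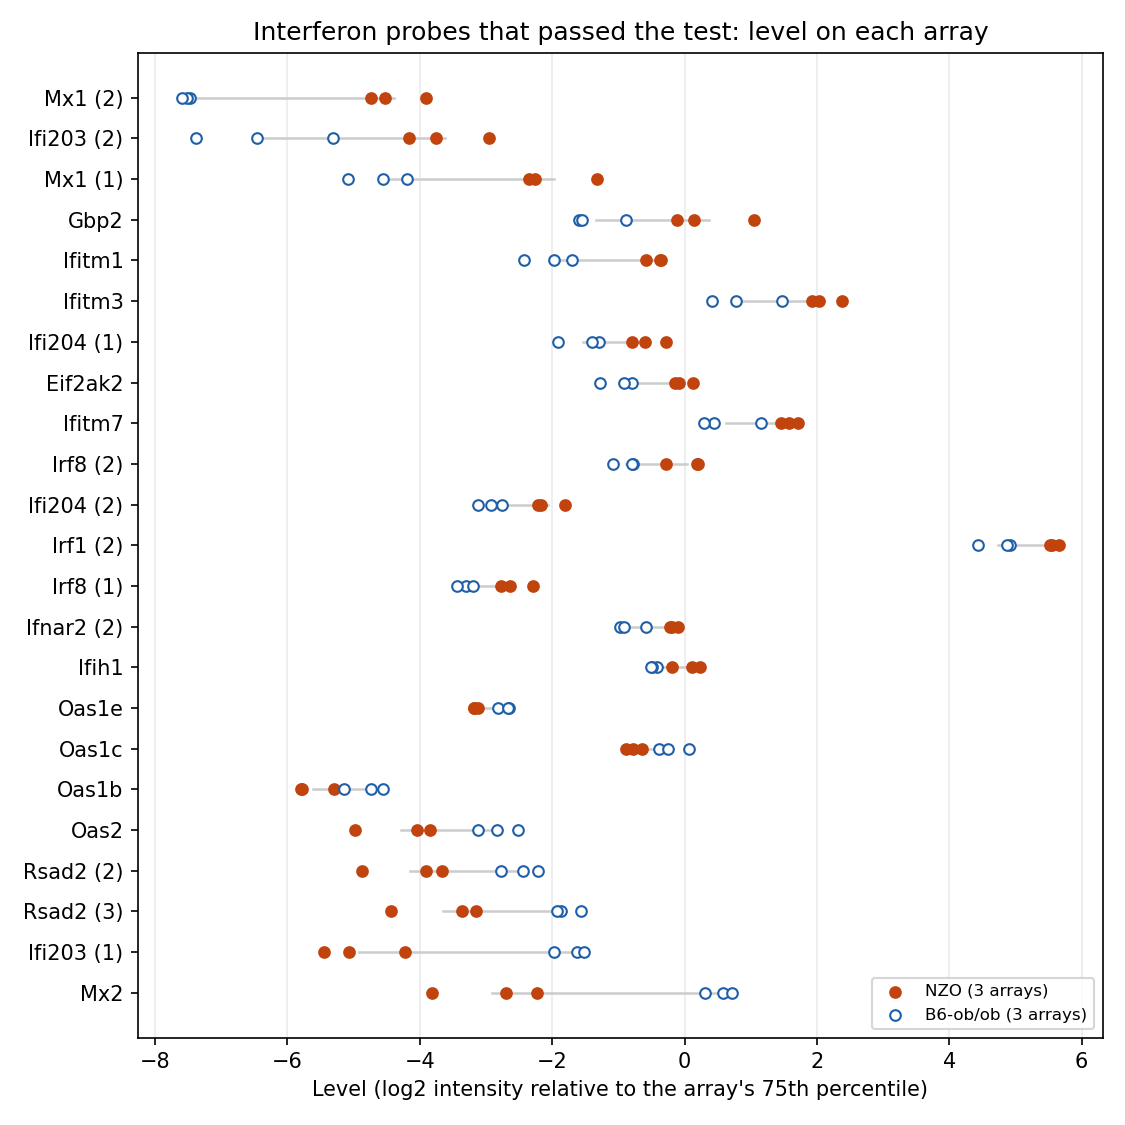
Level on each array of the 23 interferon probes that passed the test, as log2 intensity relative to the 75th percentile of the array (horizontal axis); filled points are the 3 NZO arrays, open points the 3 B6-ob/ob arrays, and grey lines join the strain means. No probe shown has overlapping strains, and among those measured on all 6 arrays Mx2 (-3.45) and Mx1 probe 1 (2.63) are the farthest apart; the points of Mx1 probe 2 in B6-ob/ob and of both Ifi203 probes in 1 strain lie near or at background, and levels of different probes are not comparable.

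No other effector of the set was called. Ifit3 belongs to a family that binds foreign RNA caps, and its probe read 161, 225 and 109 in NZO and 558, 548 and 274 in B6-ob/ob. Although these intensities do not overlap, the levels relative to the 75th percentile do, and the difference of -1.38 (SE 0.44) did not pass (limma adjusted p = 0.0738). Ifit1 had 203, 269 and 136 in NZO and 240.1, 126 and 134 in B6-ob/ob, with a difference of 0.38 (adjusted p = 0.586 by limma), and Ifit2 differed by 0.22. Isg15, a ubiquitin-like protein joined to other proteins, had 595, 609 and 344 in NZO and 483, 351 and 211 in B6-ob/ob. Its spread within each strain was wide, and its difference of 0.69 (SE 0.43) was not called (adjusted p = 0.309 by limma). Usp18, which removes ISG15 and dampens the receptor, did not overlap between strains but stayed short of the threshold (0.58, adjusted p = 0.0611 by limma). Bst2 (tetherin), which holds budding viruses to the cell, likewise had separate strains, at 1173, 1173 and 1205 in NZO and 2276, 2614 and 1574 in B6-ob/ob (-0.74, adjusted p = 0.0713). The remaining effectors had overlapping arrays and small differences: Ifi35 0.16, Ifi44 -0.05, the RNA-cutting Isg20 -0.10 and 0.00, Samhd1, which breaks down nucleotides, 0.25, and Xaf1 -0.24.

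Of the 12 genes with several tested probes, 3 had probes of opposite sign. In Irgm1 and Isg20 these differences were near 0, and Ifi203 alone had calls in both directions.

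The promoters of the set were searched for the ISRE letters (GAAA, any pair of bases, then GAAA) and the GAS letters (TTCNNNGAA) on both strands, with overlapping matches counted, in the RefSeq windows of 300 bases (250 before to 50 after a start, GRCm38.p6). Windows were given for 42 of 50 genes, and Ifi204, Mx1, Mx2, Oas1b, Oas1d, Oas1e, Oas2 and Usp18 were not among them. The ISRE letters stood in 42.0% of the 50 windows of the set (21 of 42 genes), against 3.44% of 32851 windows, and the GAS letters in 28.0% (14 of 42 genes) against 8.30%. By call, the ISRE letters were found for 4 of 9 higher genes, 2 of 2 lower genes, Ifi203, which had both calls, and 11 of 24 genes not called. The GAS letters were found for 5 of 9 higher genes, 0 of 2 lower genes and 8 of 24 genes not called. A match is a description of letters and not a bound site.

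Stretches of these windows are printed for called genes in both directions (Rsad2 and Oas1c lower, Gbp2 and Irf1 higher) and for Isg15, Ifit1 and Ifit3, which carry repeated letters but were not called. Capitals mark the ISRE letters, read on either strand, or the GAS letters in Irf1.
Rsad2, chr12:26456538-26456597, minus strand, GRCm38.p6: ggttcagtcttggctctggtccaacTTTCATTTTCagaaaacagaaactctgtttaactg
Oas1c, chr5:120812588-120812653, minus strand, GRCm38.p6: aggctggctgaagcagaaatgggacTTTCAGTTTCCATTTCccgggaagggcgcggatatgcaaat
Gbp2, chr3:142620579-142620638, plus strand, GRCm38.p6: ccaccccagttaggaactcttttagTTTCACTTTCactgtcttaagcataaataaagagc
Irf1, chr11:53769899-53769957, plus strand, GRCm38.p6: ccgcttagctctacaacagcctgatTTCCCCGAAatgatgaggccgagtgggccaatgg
Isg15, chr4:156200850-156200921, minus strand, GRCm38.p6: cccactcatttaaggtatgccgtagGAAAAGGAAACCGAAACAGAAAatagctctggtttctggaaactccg
Ifit1, chr19:34640760-34640838, plus strand, GRCm38.p6: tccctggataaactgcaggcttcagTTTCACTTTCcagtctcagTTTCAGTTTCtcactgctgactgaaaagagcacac
Ifit3, chr19:34583348-34583441, plus strand, GRCm38.p6: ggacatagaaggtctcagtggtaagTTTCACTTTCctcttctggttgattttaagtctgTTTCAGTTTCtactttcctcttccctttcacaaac
The ISRE letters occur once in Rsad2 and Gbp2, in 2 overlapping matches in Oas1c, in 3 overlapping matches in Isg15, and in 2 separate matches in Ifit1 and Ifit3. Rsad2 and Gbp2, with 1 match each, differed in opposite directions between the strains.

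Other genes of the interferon pathway, from lists that leave out the members, had 217 tested probes of 148 genes, of which 35 probes were higher (16.1%) and 17 lower (7.83%), with a median difference of 0.09. Together 24.0% were called, near the 21.8% of all probes. With the slide as a block 21 were higher and 9 lower. Leaving out 1 array gave the fewest calls without B6-ob/ob 5 (16 higher, 8 lower) and without NZO 11 (19 and 9), and calls of lower probes also came to 9 without NZO 10 (23 higher) or B6-ob/ob 6 and to 10 without NZO 12. Among the ligands 1 of 5 tested probes was called (20.0%, against 21.8% of all probes), that of Ifng, the gene of interferon gamma. It read 31.6, 26.2 and 17.7 in NZO and 3.95, 2.50 and 2.11 in B6-ob/ob, where it was not well above background. Ifng entered the test through NZO alone and was at least 2.72-fold higher there by the bound, which holds for the processed intensities only. The limma adjusted p of 0.00221 belongs to the fitted difference, which uses the values at background, and does not test this bound. The tested lymphocyte markers, like markers of other cell types, were higher in NZO too, and their part was not tested. With normexp and 75th percentile scaling, as for the pathway genes that follow, the Ifng difference was 0.60, or 1.52-fold. Ifnb1 read 679, 701 and 434 in NZO and 766, 694 and 453 in B6-ob/ob (difference 0.02), and Ifna12, Ifna4, Ifna5, Ifne, Ifnk and Ifnl3 were not well above background on any array.

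Receptor chains and JAK-STAT genes gave 2 higher and 1 lower of 37 probes (8.11% called, against 21.8% of all probes). Cish, an inhibitor of cytokine signalling, was higher by 2.02 and Ifnlr1, the interferon lambda receptor, by 1.75 (limma adjusted p = 0.0158 and 0.00221). Cish was not called without NZO 11 or NZO 12 (adjusted p = 0.0536 to 0.0596), nor with the slide as a block (adjusted p = 0.0632). Ptpn11, a phosphatase in the pathway, was lower at 1 of 3 probes (-1.58, adjusted p = 0.00221 by limma), with the others at 0.07 and 0.02. In the value table, read by the array each column follows, the Ptpn11 difference was -0.05.

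Nucleic acid sensing genes gave 2 higher and 3 lower of 39 probes (12.8% called, against 21.8% of all probes). Sting1, the adaptor of DNA sensing, read 656, 611 and 517 in NZO and 176, 115 and 117 in B6-ob/ob (difference 2.24, SE 0.28, limma adjusted p = 0.00305). Myd88, an adaptor of Toll-like receptors, was higher by 0.59, Ifi211 was lower at -0.68, and Irf3 was lower at 1 probe (-0.93) and not called at another (0.09). With the slide as a block the calls of Myd88 and Ifi211 ended (adjusted p = 0.0664 and 0.0572). With 1 array left out Myd88 was lost without NZO 10, NZO 11 or B6-ob/ob 5 (adjusted p = 0.0553 to 0.0649), Ifi211 without NZO 10, NZO 11, NZO 12, B6-ob/ob 4 or B6-ob/ob 5 (adjusted p = 0.0707 to 0.144) and Irf3 without NZO 10, NZO 11, B6-ob/ob 5 or B6-ob/ob 6 (adjusted p = 0.0651 to 0.103). Among 9 probes of other regulatory factors (22.2% called) Batf2 was higher (1.30), and Etv6 was lower at 1 probe (-0.70) with the other at 0.53. The Batf2 difference was 0.70 with normexp. Batf2 was not called without B6-ob/ob 5 (adjusted p = 0.0581), and Etv6 with normexp background correction (adjusted p = 0.199).

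The other effectors had 19 higher and 8 lower of 83 probes (32.5% called, against 21.8% of all probes). Besides Ifi202b and Cmpk2, both probes of Ifi27l2a were higher, by 2.95 and 2.55, and so were those of its relative Ifi27, by 2.44 and 0.88. With normexp the Ifi27l2a probe at 2.95 came to 2.01 and the Ifi27 probe at 2.44 to 1.71. The call of the second Ifi27 probe was lost without NZO 10, NZO 11, NZO 12, B6-ob/ob 5 or B6-ob/ob 6 (adjusted p = 0.0517 to 0.114), and in the fit with a slide block (adjusted p = 0.0756). Of 12 probes of interferon gamma GTPases (16.7% called), Gbp9 was higher at 1 (0.70) and Gbp8 lower at 1. There Gbp8 was not well above background in NZO and so at least 1.33-fold lower by the bound, which holds for the processed intensities only. Both calls ended with the slide as a block (adjusted p = 0.101 and 0.105), that of Gbp9 also without NZO 11, NZO 12, B6-ob/ob 5 or B6-ob/ob 6 (adjusted p = 0.0645 to 0.0997) and that of Gbp8 whichever array was left out. With normexp background correction Gbp8 stood at 0.06. Of 24 antigen presentation probes 6 were higher and 3 lower (37.5% called). B2m, the light chain of MHC class I, was higher at all 3 probes (1.47, 1.25 and 1.18) and the peptide transporter Tap2 by 0.80. The MHC class II genes H2-Ab1 and H2-Aa were lower, H2-Ab1 at 2 of 4 probes (-2.95 and -1.89) and H2-Aa at 1 of 2 (-0.98). The first H2-Ab1 difference was -1.46 with normexp. These genes differ in sequence between mouse strains, and whether the probes match both strains was not tested. The slide block ended the calls of H2-Aa (adjusted p = 0.136) and of the last B2m probe (adjusted p = 0.0709). Those calls were also lost with 1 array left out, H2-Aa without NZO 11, NZO 12, B6-ob/ob 5 or B6-ob/ob 6 (adjusted p = 0.0869 to 0.13) and B2m without NZO 11, NZO 12 or B6-ob/ob 5 (adjusted p = 0.0561 to 0.0844), as was Tap2 without NZO 10, NZO 11 or B6-ob/ob 5 (adjusted p = 0.0501 to 0.0687). Of 10 chemokine probes 3 were called (against 21.8% of all probes), all of them higher, Ccl8 (3.25) and both of Cxcl16 (1.76 and 1.49). Several myeloid markers, like markers of stellate, acinar and ductal cells, were higher in NZO too, and their part was not tested. The Ccl8 difference was 0.98 with normexp, and 3.91 without B6-ob/ob 4. Ccl8 was not called without NZO 10, NZO 11 or B6-ob/ob 5 (adjusted p = 0.0574 to 0.0747), and the first Cxcl16 probe without B6-ob/ob 5 (adjusted p = 0.0543).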

How the data were processed

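Total RNA of islets was amplified to Cy3-labelled cRNA and hybridised to 1-colour arrays, as the labels state, of Agilent design 014868. The deposited scanner files hold spot intensity on a linear scale, which per the file headers came from release 10.5.1.1 of Feature Extraction (the submitters' processing notes name Agilent Feature Extraction 9.1), with background subtracted and no scaling between arrays. Probe positions were taken from the files (mm9).

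Control spots were left out, 61 to 76 flagged spots per array were set missing, and no spot was saturated. The log2 processed intensity was lowered by the array's 75th percentile. A probe was kept where at least 3 of 6 arrays had it well above background (24628 of 41174). Each kept probe was tested apart, two-sided, in R 4.3.3 with limma 3.58.1 (lmFit, then eBayes). P-values were adjusted over all of them by the Benjamini-Hochberg method, and an adjusted p under 0.05 was called. The functions were tested on simulated data. Names come from the files, and those of the pathway lists were updated through RefSeq accessions.

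The members and lists were chosen with earlier results of these data known. Values on every array are given for member probes that passed the test or were measured in 1 strain only, and for genes whose probes disagree. Of each pathway list up to 4 called genes are named, those with the greatest difference in size, and a gene that is not reported here was left out of the lists. Ifnb1 and further probes of named genes were added after their values were seen. The deposited value table (33150 probes, intensity on a linear scale, column medians 21.3 to 22.4, 33074 matched to a probe) was an alternative, by its own labels and by the array that each column follows. Its scale and centring could be read from that match. Its own labels give the opposite direction to those of the scanner files, and the report gives the levels of Ifi202b that bear on this. The other alternatives were normexp with an offset of 50, quantile and median scaling, other filters on dim probes, the brightest probe per gene, slide as a block, a trended and robust prior, array weights and each array left out.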

Additional observations from a re-analysis of the deposited data

How the results depend on the processing

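Read by its own labels, the value table turned the sign of every interferon probe called that it holds: the median over the interferon probes was -0.25, Ifnar2 -0.60, Irf8 -0.89, Eif2ak2 -0.96, Ifih1 -0.50, Ifi203 3.27 and -2.70, Oas1b 0.87, Oas1c 0.58, Oas1e 0.50, Mx1 -2.66, Mx2 3.47, Ifitm1 -1.58, Ifitm3 -1.25, Ifitm7 -0.98, Gbp2 -1.68 and Rsad2 1.91, with 6 interferon probes higher, 7 pathway probes higher and 0 marker probes higher (10 interferon and 27 pathway probes were lower). Of the pathway probes it holds it gave Cish -2.04, Ifnlr1 -1.74, Ptpn11 0.053, Sting1 -2.24, Ifi211 0.67, Myd88 -0.65, Irf3 0.94, Batf2 -1.25, Ifi202b -7.62, Ifi27 -2.41 and -0.90, Cmpk2 2.25 (probe A_52_P186937), Ifi27l2a -2.66, Gbp9 -0.79, B2m -1.28 and -1.15, H2-Aa 0.67, H2-Ab1 3.005, Tap2 -0.81, Cxcl16 -1.64 and Ccl8 -3.17. Read by the array each column follows, it gave 7 lower pathway probes. With the slide as a fixed block 6 interferon probes were higher and 5 lower, and 21 pathway probes were higher and 9 lower. The median was -0.093 within 1 shared slide and 0.44 within the other. Gbp8 turned to 0.059 with normexp correction. Interferon probes called lower fell from 8 to 5 with that correction and to 5 with no filter on dim probes. Pathway probes called lower were 8 with no filter and 7 with the brightest probe per gene. Array weights raised all calls from 5376 to 10430, with 74 pathway probes higher and 34 lower. With 1 array left out, interferon probes ranged from 6 to 16 higher and 4 to 8 lower, all calls from 2814 to 5102, pathway probes from 16 to 38 higher and 8 to 17 lower, and marker probes from 28 to 48 higher, with most losses without B6-ob/ob 5 and NZO 11. Why the calls depended more on some arrays than on others was not tested. In the fit with array weights B6-ob/ob 5 had a weight of 5.43, and the other arrays 0.43 to 1.41. The other alternatives kept these counts within 1.5 times. No paired analysis was possible because the strains share no replicate number, and the slides that strains share were fitted as a block instead. Oas1b was well above background on 1 of 3 NZO arrays, so its level there is poorly known.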
